A study of Homo sapiens with 12 samples.

Results

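The integrated stress response genes described here are 35 named genes: ATF4, the transcription factor at the centre of this response, and genes that it is known to act on or with. They are listed by name and known role, with no threshold on a measured value. All 35 were found by Ensembl identifier among the 62710 genes of the count table, and all 35 passed the filter on low counts that left 20593 genes for testing.

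When cells lack amino acids, misfold proteins in the endoplasmic reticulum (ER) or meet other stresses, eIF2 kinases phosphorylate the initiation factor eIF2, and most translation slows while the ATF4 mRNA is translated more through upstream open reading frames in its leader. ATF4 then activates genes for amino acid synthesis and uptake, tRNA charging and redox balance, together with further transcription factors such as ATF3 and DDIT3 (CHOP). Because ATF4 is set largely at the level of translation, its mRNA level does not report its protein level.

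The 12 libraries are poly(A) RNA-seq of HEK293T, a transformed line from human embryonic kidney, in 6 groups of 2 biological replicates. All cells, controls included, were transfected with 200 ng of a vector for a dCasRx-based effector (dCasRx is the catalytically dead RNA-guided nuclease CasRx) and 200 ng of a guide RNA vector, and RNA was harvested after 48 hours. The group dCasRx_NT carried dCasRx alone with a nontargeting guide. The groups RBM25_NT, RBM25_MAPT and RBM25_CD46 carried dCasRx-RBM25, a fusion to the splicing factor RBM25, with a nontargeting guide, a guide for activation of MAPT exon 10 or a guide for repression of CD46 exon 13. The groups RBFOX1N_NT and RBFOX1N_MAPT carried RBFOX1N-dCasRx-C, a fusion to parts of the splicing factor RBFOX1, with the nontargeting or the MAPT guide. The effectors were overexpressed from transfected plasmids, and no untransfected cells are among the 12 libraries.

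The libraries held 32487927 to 53985468 counts. Replicates of a group differed by more than sampling noise (chi-square per gene of 6.49 to 36.3). RBM25 took 4.08% to 5.69% of all counts in the 6 dCasRx-RBM25 libraries and 0.02% to 0.0381% elsewhere. On the second principal component the dCasRx_NT replicates lay apart from the others and from each other, at 30.3 and 70.1, with the 10 other libraries at -15.2 to -3.77, so results against dCasRx_NT were also computed without each of them. Of the HEK293T markers, VIM lay at 646 to 863 CPM and NEFM at 125 to 187 CPM (counts scaled to the size of the library), while TUBB3 reached 2.97 CPM. Between RBFOX1N and RBM25, 4 of the 6 HEK293T markers were called lower (NEFM -0.33, NEFL -0.37, PAX2 -0.71 and LHX1 -0.27 on the log2 scale) and TUBB3 higher (2.26), and VIM was not called. The 8 markers of other cell types summed to 3.2 to 4.83 CPM over all libraries, highest in the RBFOX1N libraries (4.15 to 4.83 CPM); PTPRC and CD3E were at 0 in some libraries, and ALB and DES, at most 0.537 and 1.2 CPM, were higher with RBFOX1N than with RBM25. The part of these markers in the results was not tested.

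The C/EBP-ATF response element, the site that ATF4 binds together with a C/EBP partner, has the core TGATGNAA. On either strand it was present in the promoter window (250 bases before to 50 bases after a listed start, RefSeq, GRCh38.p14) of 10 of the 30 members in that table (33.3%), against 1217 of all 27305 genes there (4.46%). The members were listed as genes that ATF4 is known to act on or with, so this higher share is not an independent result. SLC7A11, VEGFA, NUPR1, SHMT2 and ALDH1L2 were not in the table. The windows shown next hold the core upstream of the start, in capitals (on the other strand in CHAC1, AARS1 and GARS1). Between the effectors, some of these members were called higher, some lower, and AARS1 and GARS1 were not called.
ATF3, chr1:212565196-212565243, + strand: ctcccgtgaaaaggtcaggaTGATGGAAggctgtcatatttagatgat
CHAC1, chr15:40953242-40953289, + strand: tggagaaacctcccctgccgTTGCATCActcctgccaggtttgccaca
JDP2, chr14:75427986-75428021, + strand: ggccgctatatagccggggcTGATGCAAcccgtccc
CEBPG, chr19:33374051-33374098, + strand: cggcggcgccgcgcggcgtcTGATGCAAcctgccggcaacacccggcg
ASNS, chr7:97872449-97872496, - strand: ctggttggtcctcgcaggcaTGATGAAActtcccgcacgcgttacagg
AARS1, chr16:70289666-70289713, - strand: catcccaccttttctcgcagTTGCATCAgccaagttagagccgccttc
GARS1, chr7:30594825-30594872, + strand: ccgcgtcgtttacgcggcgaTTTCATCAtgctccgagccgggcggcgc

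The core also lay across or after the start in MARS1, SLC3A2 and NARS1. Of the 10 members with the core, 3 were higher with RBFOX1N than with RBM25 (ATF3, CHAC1 and JDP2), 3 were lower (ASNS, CEBPG and NARS1) and 4 were not called (AARS1, GARS1, MARS1 and SLC3A2). The palindromic cAMP response element TGACGTCA, which ATF and CREB factors bind, was found in 1 member, PPP1R15A, and in 2.25% of all 27305 genes. Its window is shown with the element in capitals. These matches describe letters in a window and are not evidence of binding.
PPP1R15A, chr19:48872343-48872390, + strand: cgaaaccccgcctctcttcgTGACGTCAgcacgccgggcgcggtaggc

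The comparison that held both guides fixed set the 4 RBFOX1N_NT and RBFOX1N_MAPT libraries against the 4 RBM25_NT and RBM25_MAPT libraries. Of the 8 transcription factors and cofactors, 5 were called higher with RBFOX1N, and of the 5 feedback and stress regulators, 3 were. The members furthest apart were GDF15, DDIT3 and SESN2. The enzymes of amino acid and one-carbon metabolism were lower or not called. By edgeR's quasi-likelihood test with Benjamini-Hochberg adjustment over all 20593 genes, 11 members rose, 9 fell and 15 were not called. The members called make 57.1% of the list, where 36.7% of all genes tested were called. By direction, 31.4% of the members rose and 25.7% fell, beside 18.7% and 18% of all genes. The median log2 fold change was -0.012 over the members and -0.01 over all genes. The median absolute change was 0.197 over the members and 0.252 over all genes. Of the 35 members, 4 were called with a change of at least 2-fold (GDF15, DDIT3, SESN2 and ASNS), a size and call that 7.9% of all genes reached. By another measure, taken up further on, ASNS differed by 1.2-fold. For 16 members (45.7%) the libraries of the effectors did not overlap, beside 35.2% of all genes. With ASNS and NUPR1 left out, whose counts are taken up separately further on, 11 rose and 8 fell. In bulk RNA, fewer cells that express a gene and less of its RNA per cell cannot be told apart.

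**Figure D1:**
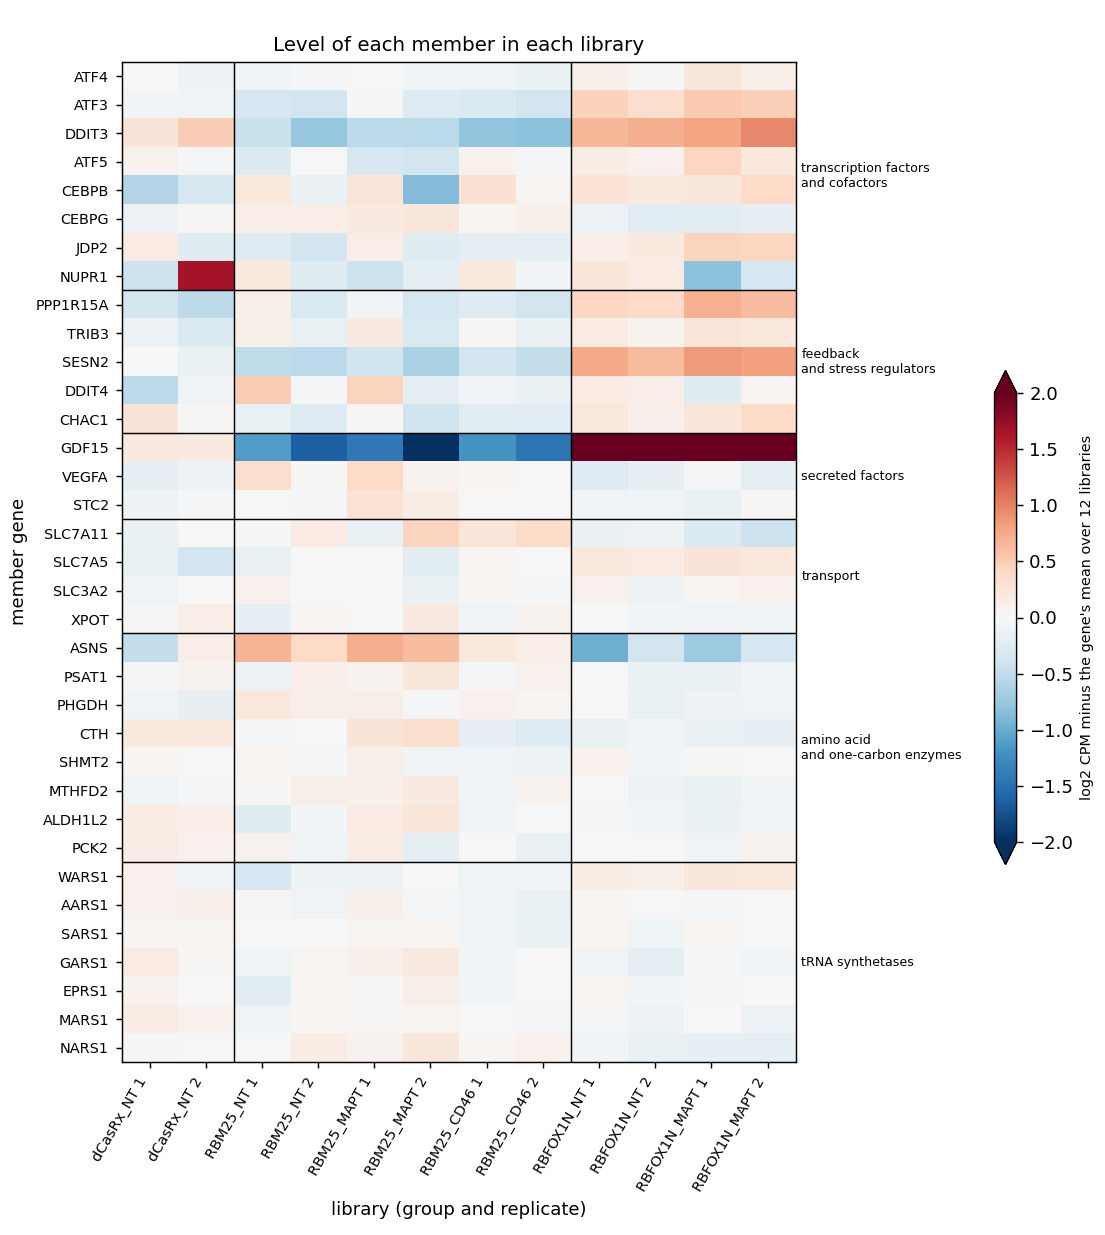
Level of each of the 35 members (vertical axis, grouped by role) in each of the 12 libraries (horizontal axis), as log2 CPM minus that gene's mean over the 12 libraries. GDF15, DDIT3 and SESN2 are high in all 4 RBFOX1N libraries and low in all 6 RBM25 libraries, and most tRNA synthetases stay close to their mean; colours stop at the ends of the scale.

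Among the 8 transcription factors and cofactors, 5 rose and 1 fell. ATF4 (chr22:39519695-39522685, GRCh38) had 1030.0 and 967 CPM in dCasRx_NT, 991 and 1013 in RBM25_NT, 1035 and 991 in RBM25_MAPT, 988 and 945 in RBM25_CD46, 1109 and 1055 in RBFOX1N_NT, and 1204 and 1121 in RBFOX1N_MAPT. Its 4 RBFOX1N libraries lay above all other libraries, by a small margin. The log2 fold change of ATF4 over RBM25 was 0.15 (SE 0.055, adjusted p = 0.0425). This call was lost without any 1 of 7 of the 8 libraries compared (adjusted p = 0.0601 to 0.143; kept without RBM25_MAPT replicate 1), with log2 values of 0.13 to 0.18 in those 7. Per length of exon, ATF4 was the most abundant member in each library, at 375.7 to 479.1 RPKM.

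ATF3, a stress-induced factor of the same bZIP family, had 158 and 155 CPM in dCasRx_NT, 129.8 and 127 in RBM25_NT, 161 and 138 in RBM25_MAPT, 135 and 128 in RBM25_CD46, 228 and 209 in RBFOX1N_NT, and 237 and 228 in RBFOX1N_MAPT. All 4 RBFOX1N libraries were above all 8 others. Its log2 fold change was 0.70 (SE 0.063, adjusted p = 3.56e-06). DDIT3 encodes CHOP, the factor linked to cell death under prolonged ER stress (chr12:57516588-57521737). DDIT3 was at 14.5 and 16.9 CPM in dCasRx_NT, 8.90 and 7.17 in RBM25_NT, 8.42 and 8.31 in RBM25_MAPT, 6.98 and 6.84 in RBM25_CD46, 19.2 and 20.1 in RBFOX1N_NT, and 20.8 and 23.4 in RBFOX1N_MAPT. The 3 effectors separated without overlap, with RBM25 lowest and RBFOX1N highest. The difference for DDIT3 was 1.35 (SE 0.09, adjusted p = 3.28e-07), a 2.55-fold difference. Opposite-strand exons of MARS1 and MBD6 share 27.2% and 4.44% of the exon bases of DDIT3, and the strand setting of the counting is not given in the sources used here. On the reads across the junctions of its 1 usable exon, the log2 ratio of DDIT3 was 0.83.

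JDP2, a bZIP repressor that can pair with ATF3, was at 19.4 and 14.6 CPM in dCasRx_NT, 14.6 and 13.4 in RBM25_NT, 19.1 and 14.7 in RBM25_MAPT, 15.1 and 15.3 in RBM25_CD46, 18.99 and 19.9 in RBFOX1N_NT, and 23.6 and 23.5 in RBFOX1N_MAPT. Libraries of RBFOX1N and RBM25 overlapped, through RBM25_MAPT replicate 1. The fitted log2 change of JDP2 was 0.47 (SE 0.099, adjusted p = 0.00243). ATF5, a relative of ATF4, was at 13.8 and 12.8 CPM in dCasRx_NT, 10.8 and 13.1 in RBM25_NT, 10.5 and 10.1 in RBM25_MAPT, 13.6 and 12.6 in RBM25_CD46, 14.4 and 13.9 in RBFOX1N_NT, and 17.5 and 15.01 in RBFOX1N_MAPT. All 4 RBFOX1N libraries lay above the other 8, by a narrow gap. ATF5 differed by 0.45 (SE 0.087, adjusted p = 0.00143), with 21.2% of its exon bases shared with NUP62 on the opposite strand.

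CEBPG, a C/EBP partner of ATF4, fell. It had 89.7 and 99.1 CPM in dCasRx_NT, 107 and 107 in RBM25_NT, 111 and 115 in RBM25_MAPT, 100.5 and 105 in RBM25_CD46, 90.4 and 83.4 in RBFOX1N_NT, and 84.1 and 87.5 in RBFOX1N_MAPT. All 4 RBFOX1N libraries were below the 6 RBM25 libraries, at a log2 fold change of -0.35 (SE 0.058, adjusted p = 0.00051). CEBPB, a further C/EBP factor, was not called (0.35, adjusted p = 0.134), with RBM25_MAPT replicates at 66.9 and 30.9 CPM. NUPR1, a small stress-induced cofactor, was not called by its counts, at most 0.858 CPM in any library.

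Among the 5 feedback and stress regulators, 3 rose and none fell. SESN2 encodes sestrin 2, which restrains mTORC1 when leucine is scarce (chr1:28259527-28282491). It had 379 and 348 CPM in dCasRx_NT, 269 and 266 in RBM25_NT, 288 and 246 in RBM25_MAPT, 293 and 274 in RBM25_CD46, 644 and 588 in RBFOX1N_NT, and 691 and 670.3 in RBFOX1N_MAPT. The effectors again separated without overlap, with RBM25 below dCasRx and RBFOX1N above. SESN2 differed by 1.27 (SE 0.066, adjusted p = 2.82e-08), or 2.42-fold, and by 1.32 on the log2 scale in junction reads of 7 exons. PPP1R15A encodes GADD34, the phosphatase subunit that reverses eIF2 phosphorylation. PPP1R15A had 96.1 and 86 CPM in dCasRx_NT, 132 and 99.4 in RBM25_NT, 119 and 96.2 in RBM25_MAPT, 104 and 95.1 in RBM25_CD46, 165 and 161 in RBFOX1N_NT, and 203 and 189 in RBFOX1N_MAPT. All RBFOX1N libraries lay above all others, at a log2 fold change of 0.68 (SE 0.091, adjusted p = 0.000101).

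CHAC1, which breaks down glutathione, had 22.7 and 19.3 CPM in dCasRx_NT, 17.2 and 15.8 in RBM25_NT, 19.4 and 14.4 in RBM25_MAPT, 16.2 and 16.4 in RBM25_CD46, 22.1 and 20.4 in RBFOX1N_NT, and 22.4 and 24.7 in RBFOX1N_MAPT. RBFOX1N was above RBM25 in all 4 libraries and overlapped with dCasRx_NT. Its log2 fold change was 0.42 (SE 0.096, adjusted p = 0.00403). TRIB3, a pseudokinase that restrains ATF4 (0.20, adjusted p = 0.137), and DDIT4, the mTORC1 inhibitor REDD1 (-0.18, adjusted p = 0.356), were not called. DDIT4 varied widely within groups, from 351.2 to 570.4 CPM over the RBM25_NT and RBM25_MAPT libraries.

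Of the 3 secreted factors, GDF15 rose, and VEGFA and STC2 fell. GDF15 encodes a stress cytokine that acts on appetite (chr19:18374731-18389176). It was measured at 57.4 and 57.2 CPM in dCasRx_NT, 23.1 and 16.2 in RBM25_NT, 18.6 and 10.2 in RBM25_MAPT, 21.9 and 18.3 in RBM25_CD46, 249.5 and 216 in RBFOX1N_NT, and 236 and 218 in RBFOX1N_MAPT. No other member separated the effectors as far, and the dCasRx_NT libraries lay between the 2 fusions. GDF15 was 13.7-fold higher with RBFOX1N, at a log2 fold change of 3.77 (SE 0.16, adjusted p = 6.22e-09).

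VEGFA, the angiogenic growth factor, was at 105 and 109.8 CPM in dCasRx_NT, 150.3 and 120.0 in RBM25_NT, 156 and 124 in RBM25_MAPT, 121 and 119 in RBM25_CD46, 98.98 and 105 in RBFOX1N_NT, and 115 and 104 in RBFOX1N_MAPT. The RBM25_NT and RBM25_MAPT libraries were above the RBFOX1N libraries without overlap. Its log2 fold change was -0.38 (SE 0.085, adjusted p = 0.0038). STC2, the glycoprotein stanniocalcin 2, had 233 and 244 CPM in dCasRx_NT, 253 and 247 in RBM25_NT, 306 and 277 in RBM25_MAPT, 249 and 249 in RBM25_CD46, 237 and 236 in RBFOX1N_NT, and 226 and 254 in RBFOX1N_MAPT. These ranges overlapped, and the difference was -0.18 (SE 0.059, adjusted p = 0.0279). The STC2 call was lost without any 1 of 5 of the 8 libraries (adjusted p = 0.0645 to 0.183): both RBFOX1N_NT replicates, RBFOX1N_MAPT replicate 1, RBM25_NT replicate 1 and RBM25_MAPT replicate 1, with log2 values of -0.18 to -0.13. It was also lost with the RBM25_CD46 libraries averaged in (-0.14, adjusted p = 0.0508).

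Transport genes were divided. SLC7A5, the light chain of the LAT1 transporter of large neutral amino acids, had 487 and 415 CPM in dCasRx_NT, 489 and 538 in RBM25_NT, 534 and 467 in RBM25_MAPT, 554 and 538 in RBM25_CD46, 625 and 604 in RBFOX1N_NT, and 643 and 625 in RBFOX1N_MAPT. RBFOX1N was highest in all 4 libraries, at a log2 fold change of 0.30 (SE 0.068, adjusted p = 0.00396). SLC7A11, the cystine transporter, had 29.7 and 32.2 CPM in dCasRx_NT, 31.6 and 36.5 in RBM25_NT, 29.6 and 44.2 in RBM25_MAPT, 38.5 and 41.9 in RBM25_CD46, 29.7 and 30.1 in RBFOX1N_NT, and 26.7 and 24.3 in RBFOX1N_MAPT. RBM25_MAPT replicate 1 overlapped with RBFOX1N, and the log2 fold change was -0.36 (SE 0.11, adjusted p = 0.017). The SLC7A11 call was lost without RBFOX1N_NT replicate 1 (-0.36, adjusted p = 0.0535), RBFOX1N_MAPT replicate 2 (-0.33, adjusted p = 0.0682) or RBM25_NT replicate 2 (-0.31, adjusted p = 0.0652). SLC3A2, the heavy chain that both carriers share (0.039), and XPOT, the tRNA exporter (-0.068), were not called.

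Among the 8 enzymes of amino acid and one-carbon metabolism, none rose and 4 fell. ASNS, which makes asparagine (chr7:97852118-97872542), had 4.14 and 6.30 CPM in dCasRx_NT, 9.26 and 7.59 in RBM25_NT, 9.53 and 8.83 in RBM25_MAPT, 6.62 and 6.31 in RBM25_CD46, 2.93 and 4.45 in RBFOX1N_NT, and 3.48 and 4.51 in RBFOX1N_MAPT. By these counts the RBFOX1N libraries were below the RBM25 libraries without overlap, at -1.19 (SE 0.16, adjusted p = 8.87e-05). CTH, which makes cysteine from cystathionine (chr1:70411218-70439851), had 45.8 and 46 CPM in dCasRx_NT, 39.4 and 40.2 in RBM25_NT, 48.01 and 50.1 in RBM25_MAPT, 35.7 and 33.6 in RBM25_CD46, 36.5 and 38.1 in RBFOX1N_NT, and 36.02 and 35.8 in RBFOX1N_MAPT. RBFOX1N was below RBM25 with these guides, but the RBM25_CD46 libraries were lower still. Its log2 fold change was -0.27 (SE 0.057, adjusted p = 0.0024).

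PHGDH, the first enzyme of serine synthesis, had 628 and 588 CPM in dCasRx_NT, 758 and 713 in RBM25_NT, 714 and 649 in RBM25_MAPT, 698 and 673 in RBM25_CD46, 656 and 591 in RBFOX1N_NT, and 615 and 629 in RBFOX1N_MAPT. Ranges overlapped by RBFOX1N_NT replicate 1 and RBM25_MAPT replicate 2, and the log2 fold change was -0.19 (SE 0.06, adjusted p = 0.0273). MTHFD2, a mitochondrial folate enzyme, had 234 and 239 CPM in dCasRx_NT, 252 and 267 in RBM25_NT, 266 and 279 in RBM25_MAPT, 234 and 259 in RBM25_CD46, 248 and 231 in RBFOX1N_NT, and 224 and 236 in RBFOX1N_MAPT. RBFOX1N was below RBM25 with these guides by a narrow gap, while RBM25_CD46 replicate 1 lay within the RBFOX1N range. The log2 fold change of MTHFD2 was -0.18 (SE 0.058, adjusted p = 0.0276), and 27.2% of its exon bases are shared with SLC4A5 on the opposite strand. Each of these 2 calls was lost when 1 of 5 of the 8 libraries was left out. For PHGDH these were RBFOX1N_NT replicate 2, both RBFOX1N_MAPT replicates, RBM25_NT replicate 1 and RBM25_MAPT replicate 1 (-0.20 to -0.15, adjusted p = 0.0633 to 0.117). For MTHFD2 they were RBFOX1N_NT replicate 2, both RBFOX1N_MAPT replicates, RBM25_NT replicate 2 and RBM25_MAPT replicate 2 (-0.20 to -0.15, adjusted p = 0.0505 to 0.15). PSAT1, the next step of serine synthesis (-0.17), SHMT2 (-0.0036) and ALDH1L2 (-0.10) of mitochondrial folate metabolism, and the mitochondrial carboxykinase PCK2 (0.00053) were not called.

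The 7 aminoacyl-tRNA synthetases, which load tRNAs with amino acids, went in no common direction. WARS1, for tryptophan, had 163 and 145 CPM in dCasRx_NT, 121 and 142 in RBM25_NT, 140.2 and 151 in RBM25_MAPT, 144 and 146 in RBM25_CD46, 169.7 and 165 in RBFOX1N_NT, and 179 and 177 in RBFOX1N_MAPT. RBFOX1N was above all other libraries, at a log2 fold change of 0.32 (SE 0.065, adjusted p = 0.00219). NARS1, for asparagine, had 132 and 137 CPM in dCasRx_NT, 137 and 151 in RBM25_NT, 143 and 159 in RBM25_MAPT, 140.2 and 144 in RBM25_CD46, 130.5 and 122 in RBFOX1N_NT, and 122 and 120.2 in RBFOX1N_MAPT. RBFOX1N was below all other libraries, at -0.26 (SE 0.059, adjusted p = 0.0046). The other 5, AARS1, SARS1, GARS1, EPRS1 and MARS1, were not called, with log2 values from -0.15 for GARS1 to 0.0028 for EPRS1.

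**Figure D2:**
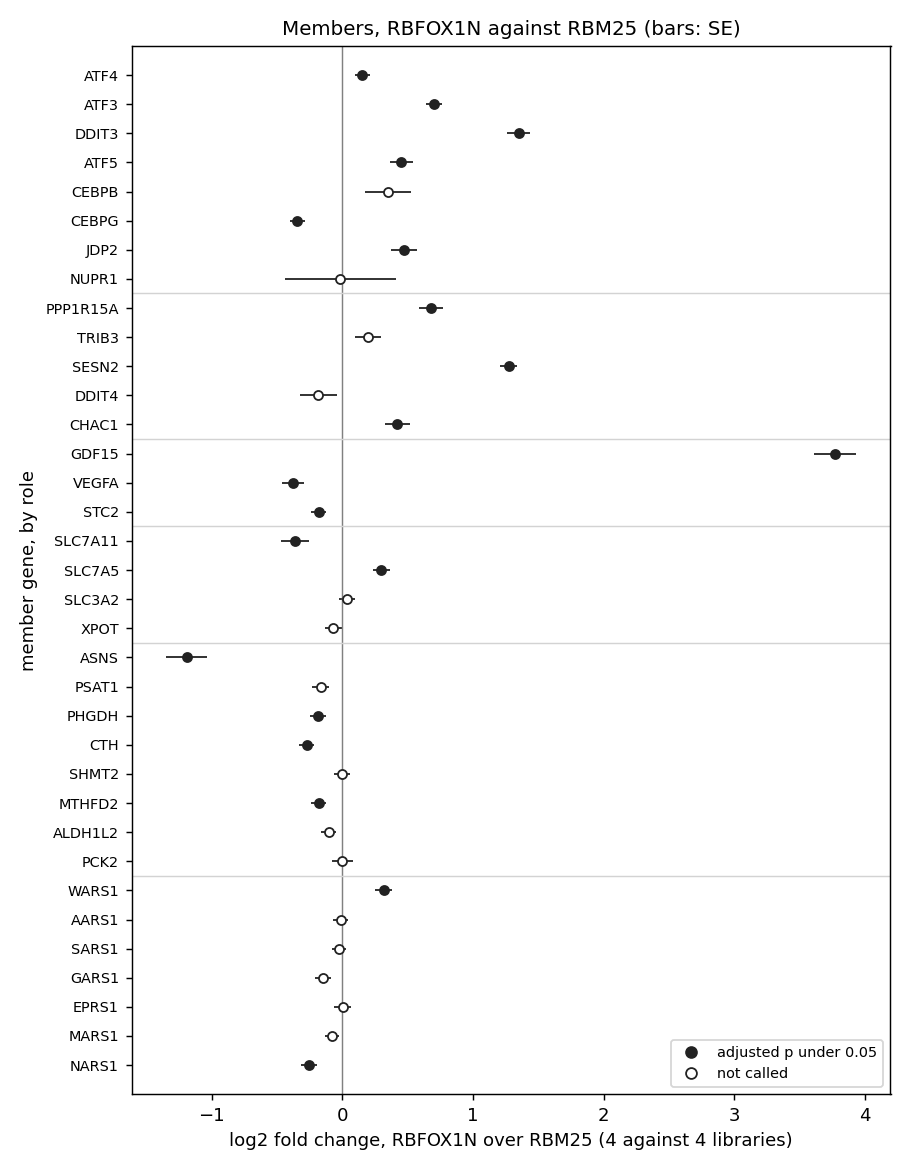
Log2 fold change of each member (horizontal axis), RBFOX1N over RBM25 with the nontargeting and MAPT guides (4 libraries against 4), with its standard error as a bar; filled points were called at an adjusted p under 0.05. GDF15 stands at 3.77 and ASNS at -1.19, and the other enzymes and the synthetases lie between -0.27 (CTH) and 0.32 (WARS1).

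The counts of 2 members need separate reading. The authors' splicing table gives reads across exon junctions, which offer a second level for genes with constitutive exons. For ASNS, the gene counts were 100 to 419 per library, while the median over 11 exons was 1369 to 2472 junction reads per library. That is 0.145 gene counts per junction read. Among 5498 genes with enough such reads, the counts per junction read and kb of exon of ASNS lay at percentile 0.982 on a scale to 100, near the bottom. The processed transcript AC079781.5 on the same strand covers 44.6% of the exon bases of ASNS in GENCODE release 29; its part in the low count was not tested.

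Scaled to library size as CPM is, junction reads of ASNS were at 37.1 to 40.5 in the 4 RBFOX1N libraries and 45.0 to 47.5 in the 4 RBM25_NT and RBM25_MAPT libraries. The groups did not overlap, and RBFOX1N was lower by both measures. The means differed by 1.2-fold (39.1 ± 1.54 against 46.7 ± 1.19, SD, n = 4 each) in place of 2.28-fold. The dCasRx_NT libraries were at 43.1 and 46.7, overlapping with RBM25_NT at 45.0 and 47.5. Calls of ASNS above dCasRx_NT, given further on, rest on the gene counts.

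NUPR1 had 6 to 32 gene counts per library, against 102 to 252 junction reads of its 1 usable exon. The 4 RBFOX1N libraries were at 5.22 to 6.02 scaled junction reads, and the 4 RBM25_NT and RBM25_MAPT libraries at 2.31 to 2.69. The mean of NUPR1 was 2.25-fold higher with RBFOX1N (5.71 ± 0.359 against 2.54 ± 0.169, SD, n = 4 each), where the gene counts gave a log2 fold change of -0.016. The RBM25_CD46 libraries were at 3.59 and 2.7 and the dCasRx_NT libraries at 4.57 and 2.84, all below RBFOX1N and overlapping with each other. ASNS and NUPR1 were chosen for this reading after their values were seen, so it is a description. An exact permutation test of the junction reads was run for both genes, but for that reason its outcome is not taken as support.

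ATF4, GDF15 and CEBPG had no usable exon. In the other called members the log2 ratio of junction reads had the sign of the count ratio. It was nearer 0 for SLC7A11 (-0.063 against -0.36, on 636 junction reads over all libraries), VEGFA (-0.18 against -0.38), STC2 (-0.11 against -0.18) and, as given above, DDIT3 and ASNS. The ratio was further from 0 for SLC7A5 (0.46 against 0.30), JDP2 (0.653 against 0.475), ATF5 (0.543 against 0.452) and PHGDH (-0.243 against -0.186). The remaining called members differed less between the measures.

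**Figure D3:**
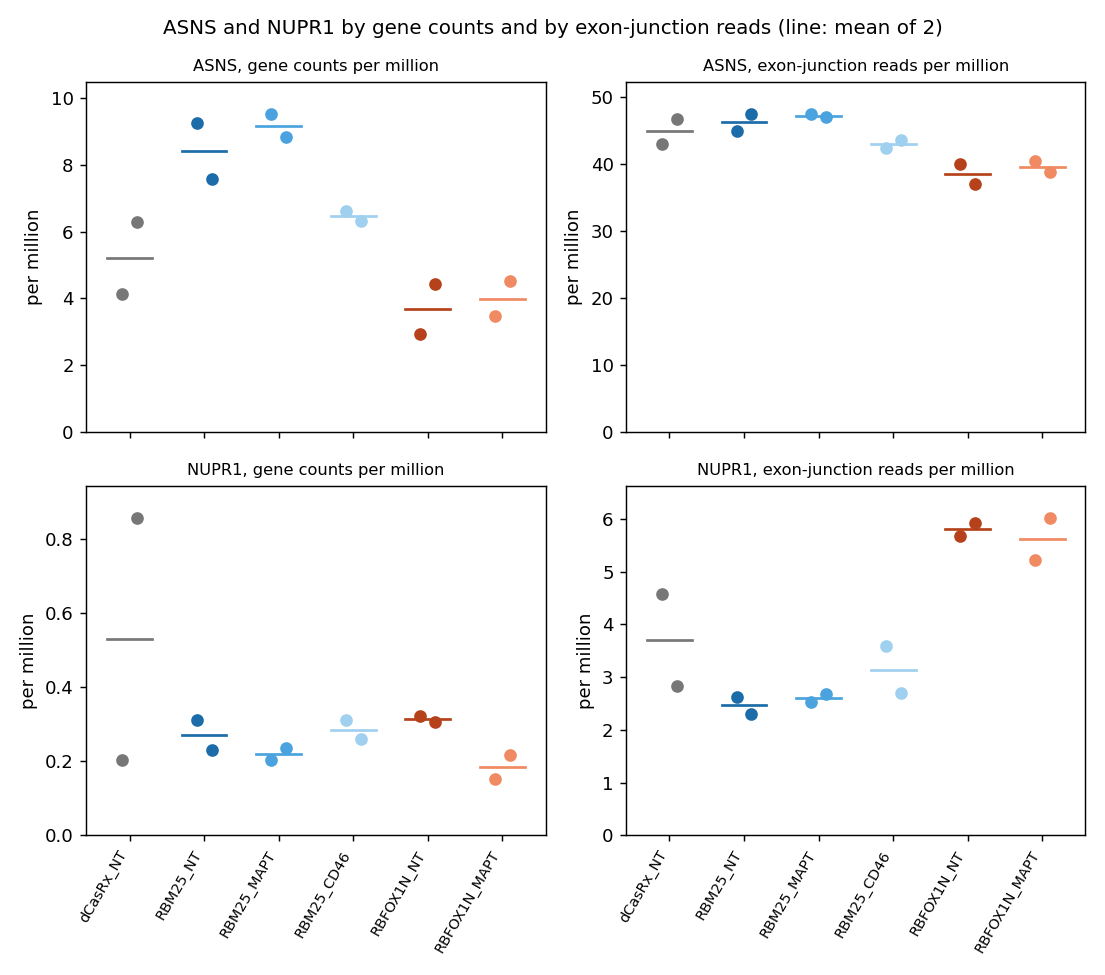
ASNS (top) and NUPR1 (bottom) per library, as CPM (left) and junction reads scaled in the same way (right), for the 6 groups on the horizontal axis; points are libraries and lines the mean of 2. ASNS is lower with RBFOX1N than with RBM25 on both sides, and NUPR1 is highest in the 4 RBFOX1N libraries on the right.

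Each fusion was also compared with dCasRx alone under the nontargeting guide, 2 libraries against 2. Both comparisons share the dCasRx_NT libraries, so their values are not independent of each other. With RBM25_NT, 3 members fell and none rose (8.57% of the members called, beside 7.62% of all genes, 3.88% higher and 3.74% lower). GDF15 fell by 1.55 on the log2 scale (SE 0.21, adjusted p = 0.000971, edgeR), DDIT3 by 0.97 (SE 0.13, adjusted p = 0.000744) and SESN2 by 0.44 (SE 0.092, adjusted p = 0.0118). Both RBM25_NT libraries were below both dCasRx_NT libraries for each of these genes. Of all 35 members, 68.6% had libraries that did not overlap in this comparison, so non-overlap does not set the called genes apart. This share was not computed over all genes. GDF15 and DDIT3 were called without any single library of the 4. Without RBM25_NT replicate 1 or 2 the SESN2 call was lost (-0.44 and -0.43, adjusted p = 0.0949 and 0.0589).

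With RBFOX1N_NT, 5 members rose and 1 fell (17.1% of the members called, beside 10.8% of all genes, 7.52% higher and 3.25% lower). GDF15 rose by 2.02 (SE 0.21, adjusted p = 6.76e-05, edgeR), PPP1R15A by 0.84 (SE 0.13, adjusted p = 0.00135), SESN2 by 0.76 (SE 0.092, adjusted p = 0.000205), ATF3 by 0.48 (SE 0.089, adjusted p = 0.00429) and SLC7A5 by 0.45 (SE 0.096, adjusted p = 0.0103). CTH fell by 0.30 (SE 0.080, adjusted p = 0.0332). In each of these genes the RBFOX1N_NT and dCasRx_NT libraries did not overlap, as in 60% of all 35 members, called or not. The share over all genes was not computed here either. GDF15, SESN2 and PPP1R15A were called without any single library of the 4. CTH was lost without any 1 of the 4 (-0.32 to -0.26, adjusted p = 0.0755 to 0.209), SLC7A5 without dCasRx_NT replicate 2 (0.33, adjusted p = 0.0951) or RBFOX1N_NT replicate 1 or 2 (0.43 and 0.48, adjusted p = 0.0762 and 0.0625), and ATF3 without RBFOX1N_NT replicate 1 (0.42, adjusted p = 0.0536).

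GDF15 and SESN2 were thus called below dCasRx with RBM25 and above it with RBFOX1N. DDIT3 was called with RBM25, while with RBFOX1N it stood at 0.32 (adjusted p = 0.111). PPP1R15A was called with RBFOX1N, while with RBM25 it stood at 0.35 (adjusted p = 0.121). ATF4 was at 0.0052 with RBM25_NT and 0.12 with RBFOX1N_NT and was called in neither. Without dCasRx_NT replicate 2, the library furthest out, the RBM25_NT comparison called 1 member higher (ASNS) and 3 lower, and the RBFOX1N_NT comparison 4 higher and 0 lower. Over all genes, calls fell to 599 from 1570 and to 849 from 2217 without that library.

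**Figure D4:**
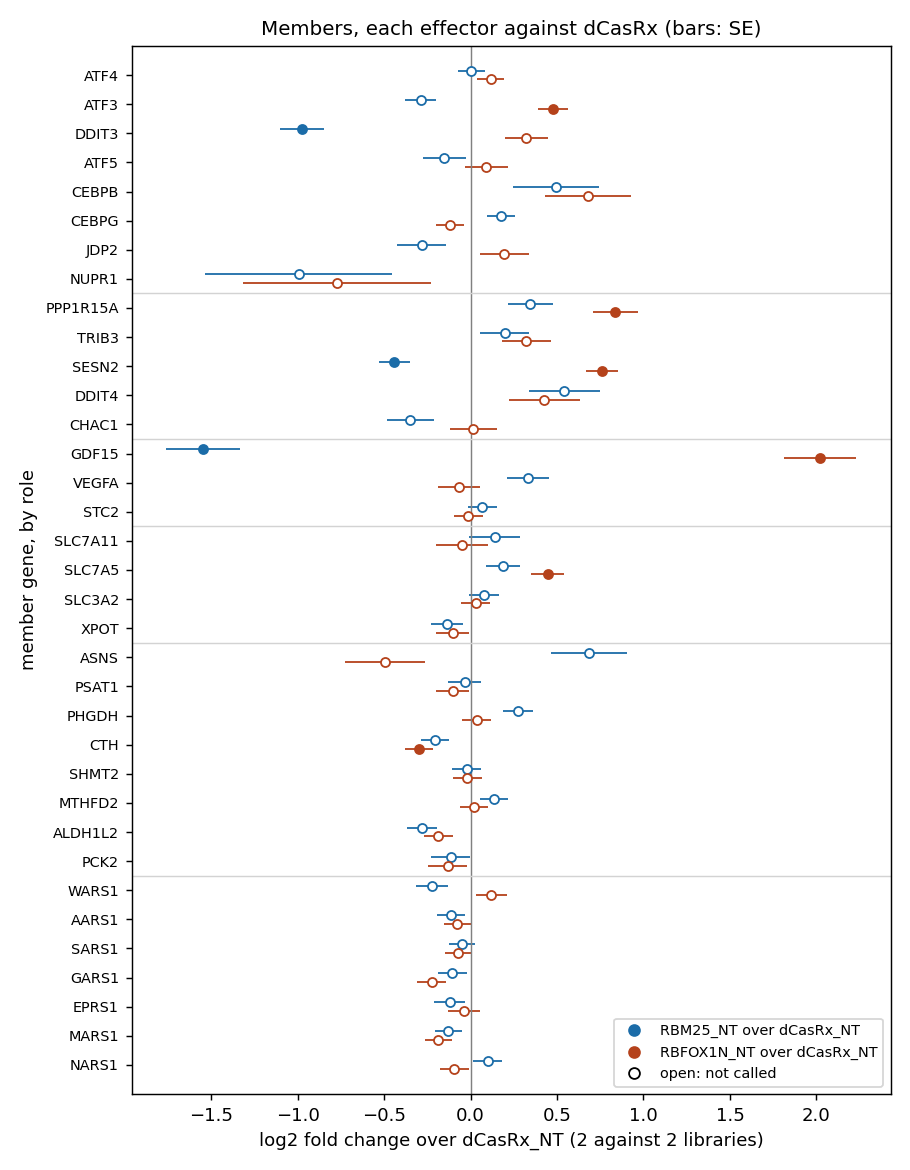
Log2 fold change of each member over dCasRx_NT (horizontal axis) for RBM25_NT and RBFOX1N_NT, 2 libraries against 2 each, with standard errors as bars; open points were not called. Both sets of points use the same dCasRx_NT libraries. GDF15 and SESN2 are called on opposite sides of 0.

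The guides were compared within an effector. No member was called for the MAPT guide with RBM25, the CD46 guide with RBM25, the MAPT guide with RBFOX1N, or for the difference between the MAPT effects in the 2 fusions, and no gene of the 20593 was called in any of them by edgeR (percent called of 0 each). At an unadjusted p under 0.05, 4, 1 and 0 members and 1026, 487 and 418 genes passed for the 3 guides. DESeq2 called 4, 3 and 0 genes, none of them a member. The members ranged from -0.44 to 0.34 for the MAPT guide with RBM25, from -0.38 to 0.24 for the CD46 guide, and from -0.76 to 0.28 for the MAPT guide with RBFOX1N. Without RBM25_MAPT replicate 1, the MAPT guide with RBM25 called 555 genes, and GDF15 and CEBPB among the members, both lower.

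Related gene lists were counted in the same fit of RBFOX1N against RBM25, where 36.7% of all genes were called. Of 20 genes for eIF2, its kinases, phosphatase and exchange factor, a list that also holds OMA1, 2 rose and 7 fell. Their median log2 change was -0.085. EIF2S3, an eIF2 subunit, fell by 0.42, the phosphatase catalytic subunit PPP1CC by 0.34 and the double-stranded RNA sensor kinase EIF2AK2 by 0.30, while OMA1, the mitochondrial protease that starts signalling through DELE1, rose by 0.30. The ER kinase PERK (EIF2AK3), named in addition to these, rose by 0.21 here. It rose by 0.37 with RBM25_NT over dCasRx_NT and by 0.58 with RBFOX1N_NT over dCasRx_NT. These 3 comparisons share libraries, so the values are not independent of each other. Of 25 further known ATF4 targets, 5 rose and 3 fell. The autophagy receptor SQSTM1 rose by 0.86, TXNIP by 0.47 and the proline enzyme PYCR1 by 0.27, and the lipoprotein receptor VLDLR fell by 0.66. Of 18 ER chaperones and ATF6 or XBP1 targets, 4 rose and 4 fell. Here SYVN1 of ER-associated degradation rose by 0.34 and the secreted ER protein CRELD2 by 0.33, and the chaperone partners SDF2L1 and PDIA6 fell by 0.36 and 0.31.

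Splicing gives a readout of the member genes that is separate from their level. The percent spliced in (PSI) is the percent of reads that include an exon, an intron or a splice site. In 32 member genes, 346 events had enough reads to be tested. Calls needed a difference of 10 points or more beside an adjusted p below 0.05. Between RBFOX1N and RBM25, 6 member events in 5 genes were called, 1.73% of the 346, beside 2.86% of all 100383 events. With RBM25_NT over dCasRx_NT, 6 events were called, all in CTH (1.73% beside 0.731%). With RBFOX1N_NT over dCasRx_NT, 6 events in 5 genes were called (1.73% beside 1.14%). At an adjusted p below 0.05 with no minimum size, 71 member events (20.5%) passed between RBFOX1N and RBM25, beside 12.1% of all events, 22 (6.36%) with RBM25_NT, beside 2.3%, and 27 (7.8%) with RBFOX1N_NT, beside 2.7%. The median absolute difference was smaller over the member events than over all events in each comparison. It was 0.509 against 1.22 points between RBFOX1N and RBM25, 0.507 against 1.37 with RBM25_NT, and 0.476 against 1.36 with RBFOX1N_NT. Events of 1 gene share reads and are not independent.

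The largest splicing difference of a member from dCasRx_NT, with each fusion, lay in CTH. Its exons of 58, 122 and 53 nt, shown next because they carry it, are coding in all 3 protein-coding CTH transcripts of GENCODE release 29, and none of the 3 lengths is a multiple of the codon length.
CTH exon, chr1:70429794-70429851, + strand: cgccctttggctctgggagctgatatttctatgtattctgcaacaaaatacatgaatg
CTH exon, chr1:70433828-70433949, + strand: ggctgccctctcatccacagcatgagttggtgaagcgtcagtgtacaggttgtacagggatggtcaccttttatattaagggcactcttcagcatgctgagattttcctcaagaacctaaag
CTH exon, chr1:70435125-70435177, + strand: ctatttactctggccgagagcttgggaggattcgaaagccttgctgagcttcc

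Inclusion of the 58-nt exon was 68.97 and 65.2% in dCasRx_NT, 95.7 and 96.8 in RBM25_NT, 92.2 and 92.4 in RBM25_MAPT, 94.1 and 95.95 in RBM25_CD46, 95.9 and 95.2 in RBFOX1N_NT, and 98.8 and 95.5 in RBFOX1N_MAPT. Both dCasRx_NT libraries were far below the 10 others. The exon was 29.1 points higher with RBM25_NT (adjusted p = 1.72e-05, quasi-binomial model) and 28.4 points higher with RBFOX1N_NT (adjusted p = 5.01e-05), on 170 to 306 reads per library. With limma on logit PSI both calls held, close to the threshold with RBM25_NT (adjusted p = 0.0499 and 0.0387). Leaving out either dCasRx_NT library left 27.3 to 31.0 points with RBM25_NT and 26.6 to 30.3 points with RBFOX1N_NT, all called.

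The 122-nt exon of CTH was at 85.98 and 77.1% in dCasRx_NT, 95.9 and 94.4 in RBM25_NT, 92.8 and 92.7 in RBM25_MAPT, 92.7 and 98.2 in RBM25_CD46, 94.6 and 91.2 in RBFOX1N_NT, and 91.7 and 94.4 in RBFOX1N_MAPT. The 53-nt exon was at 83.4 and 74.8% in dCasRx_NT, 97.5 and 95.9 in RBM25_NT, 93.2 and 98 in RBM25_MAPT, 94.4 and 98.9 in RBM25_CD46, 96.97 and 93.6 in RBFOX1N_NT, and 92.4 and 97.2 in RBFOX1N_MAPT. Both were lowest in the dCasRx_NT libraries, which also differed from each other. With RBM25_NT they rose by 13.6 and 17.6 points (adjusted p = 0.0186 and 0.0126), and with RBFOX1N_NT the 53-nt exon rose by 16.2 points (adjusted p = 0.0334). Without dCasRx_NT replicate 2 these differences were 9.15, 13.3 and 11.8 points and were not called (adjusted p = 0.214, 0.134 and 0.252). The other CTH calls with RBM25_NT were a 4372-nt intron, -12.6 points, and both sites of 1 alternative 5′ splice site, 17.1 and -15.7 points. Each of the 5 CTH calls besides the 58-nt exon was lost without at least 2 of the 4 libraries, and with limma on logit PSI (adjusted p = 0.0986 to 0.236).

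SESN2, which rose in level, also differed in an exon of 103 nt, shown next. It is coding in the 1 protein-coding SESN2 transcript of GENCODE release 29.
SESN2 exon, chr1:28273406-28273508, + strand: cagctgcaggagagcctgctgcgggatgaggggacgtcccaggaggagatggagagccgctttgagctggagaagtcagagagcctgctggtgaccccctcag

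Inclusion of the SESN2 exon was 85.5 and 88.7% in dCasRx_NT, 84.3 and 80.7 in RBM25_NT, 83.7 and 80.7 in RBM25_MAPT, 85.3 and 86.7 in RBM25_CD46, 94.1 and 94 in RBFOX1N_NT, and 94.7 and 93.5 in RBFOX1N_MAPT. All 4 RBFOX1N libraries were above the other 8, and the difference from RBM25 was 11.7 points (adjusted p = 1.22e-07), on 875 to 2610 reads per library.

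An ATF3 exon of 101 nt (chr1:212609171-212609271), found in none of the 8 protein-coding ATF3 transcripts of GENCODE release 29, was at 76.9 and 60% in dCasRx_NT, 66.8 and 70.9 in RBM25_NT, 89.3 and 66.7 in RBM25_MAPT, 77.3 and 77.8 in RBM25_CD46, 38.7 and 43.1 in RBFOX1N_NT, and 38.5 and 42.5 in RBFOX1N_MAPT. RBFOX1N was below all other libraries, with a difference of -32.7 points from RBM25 (adjusted p = 0.000624) on 37 to 142 reads per library. Against dCasRx_NT the difference was -27.6 points (adjusted p = 0.046) and was lost without any 1 of the 4 libraries (-36.0 to -19.1 points, adjusted p = 0.0557 to 0.308). A JDP2 exon of 221 nt (chr14:75431681-75431901) was at 8.43 and 19.5% in dCasRx_NT, 6.12 and 11.8 in RBM25_NT, 10.6 and 11.6 in RBM25_MAPT, 8 and 15.8 in RBM25_CD46, 32.5 and 26.1 in RBFOX1N_NT, and 28.6 and 26.4 in RBFOX1N_MAPT. It was higher in all RBFOX1N libraries, by 18.4 points over RBM25 (adjusted p = 0.0102), on 26 to 94 reads per library.

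In DDIT3, 2 forms of an alternative 3′ splice site went in opposite directions. The 62-nt form was at 18.3 and 21.1% in dCasRx_NT, 6.42 and 16.1 in RBM25_NT, 15.6 and 6.08 in RBM25_MAPT, 24.1 and 18.8 in RBM25_CD46, 32.7 and 32.3 in RBFOX1N_NT, and 33.7 and 32.9 in RBFOX1N_MAPT. RBFOX1N libraries were above all others and close to each other. Against RBM25 this form was 21.8 points higher (adjusted p = 0.000318) and the 76-nt form differed by -20.9 points (adjusted p = 0.000859). A 9349-nt intron of SLC3A2 had a lower PSI with RBFOX1N than with RBM25, at a difference of -12.9 points (adjusted p = 0.000118, quasi-binomial model). The RBFOX1N libraries were at 51.3% to 56.4%, and the RBM25_NT and RBM25_MAPT libraries at 64.0% to 69.9%. Whether the reads counted as inclusion came from a retained intron was not tested. With limma on logit PSI the intron was not called (adjusted p = 0.114), while the other 5 member events of this comparison were.

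With RBFOX1N_NT over dCasRx_NT, 3 more exons were called, in MARS1 (75 nt, 12.01 points, adjusted p = 9.22e-05), PCK2 (96 nt, 11.02 points, adjusted p = 0.0179) and VEGFA (132 nt, 11.1 points, adjusted p = 0.0404). The MARS1 exon was at 81.3% and 82.7% in dCasRx_NT and at 93.4% and 94.6% in RBFOX1N_NT, and it was called without any single library, but not with limma on logit PSI (adjusted p = 0.0646). With limma the 58-nt CTH exon was the 1 member event called with RBFOX1N_NT. The PCK2 and VEGFA calls were each lost without any 1 of the 4 libraries (PCK2 at 10.1 to 12.0 points, adjusted p = 0.0634 to 0.132; VEGFA at 9.27 to 13.0 points, adjusted p = 0.0843 to 0.278).

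**Figure D5:**
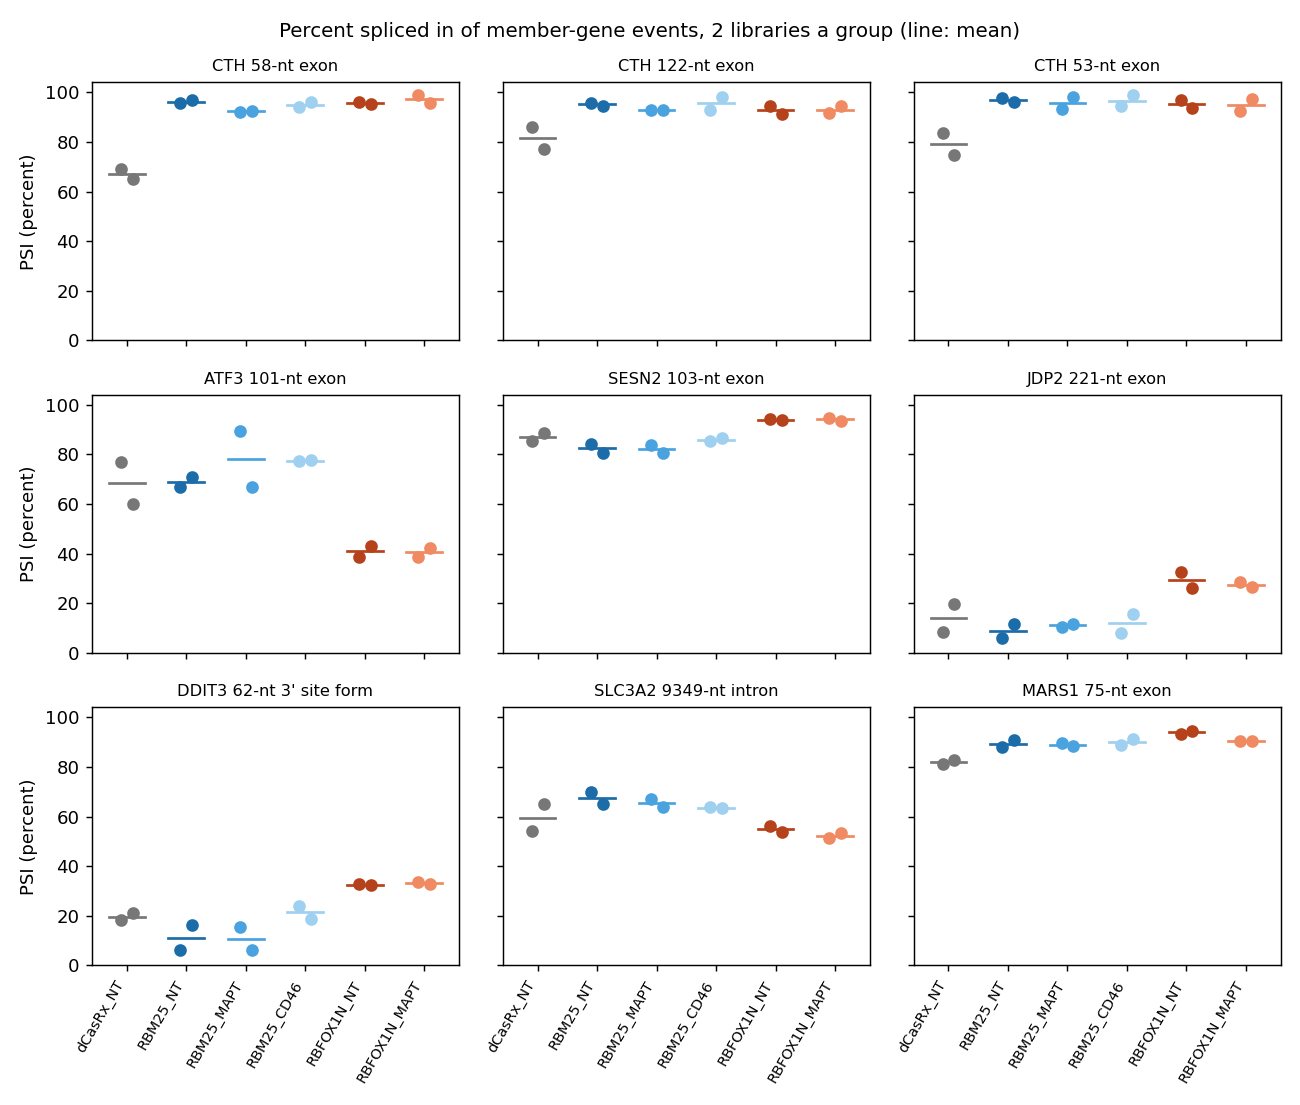
PSI (vertical axis, percent) of 9 events in member genes for the 6 groups (horizontal axis); points are libraries and lines the mean of 2. The CTH exons are lowest in dCasRx_NT (65.2% and 69.0% for the 58-nt exon), and the ATF3, SESN2, JDP2 and DDIT3 events set the 4 RBFOX1N libraries apart.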

How the data were processed

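Poly(A) RNA of 12 HEK293T libraries was sequenced as paired 150-nt reads, with 2 biological replicates in each of 6 groups; p-values rest on the spread between these libraries. The authors deposited raw counts per Ensembl gene and, in vast-tools layout per the file headers, the percent spliced in of 721551 events with a quality field that holds other values, among them the corrected inclusion and exclusion reads. STAR 2.7.10, edgeR and hg38 are named in the submitters' processing notes; which annotation and strandedness option were used to count is, in the sources used here, not given.

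The 35 members and all gene lists were chosen with earlier results of these data known. Counts were fitted across all 12 libraries with edgeR 4.0.16 in R 4.3.3 (TMM scaling, filterByExpr, 6 group means, quasi-likelihood test, Benjamini-Hochberg adjustment over 20593 genes, threshold 0.05). CPM and RPKM (per kb of GENCODE release 29 exons) were computed from the counts. In counts simulated for RBFOX1N against RBM25, 200 genes with a mean above 1 CPM were raised or lowered by 1 on the log2 scale. The fit over 20026 genes recovered 97.5% of these 200. Recovery of smaller changes, which most called members showed, was not tested. Events with at least 20 reads in every library and at least 24 reads of the less used form in all were fitted with a quasi-binomial logistic model, whose dispersion was moderated with limma 3.58.1 and held at 1 or above. Of 4562538 PSI values, 0 were more than 0.05 points from the value recomputed from the reads.

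All members were accounted for. Library values were given for ATF4 and the members called between RBFOX1N and RBM25, and called members were named in the other comparisons. From each further list up to 4 called genes were named by size of change, with EIF2AK3 named outside this rule. One further list is not reported here. The alternatives were DESeq2 1.42.0, RLE size factors in edgeR, no count filter, only the libraries compared, a replicate block, all guides averaged, the CD46 guide also averaged for RBM25, at least 40 reads per event and library, limma on logit PSI and leaving out each library. Exon-junction reads for ASNS and NUPR1, and the count without both genes, were added after the data were seen. Totals of 32487927 to 53985468 counts per library set the counting precision. No untransfected library was analysed here.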

Additional observations from a re-analysis of the deposited data

How the results depend on the processing

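Of 825 values under alternatives, 671 kept their direction and their side of the threshold (counts within 1.5 times), and 0 were reversed. The 825 include the exon-junction readings of ASNS, counted as kept, and of NUPR1, which passed the threshold only by junction reads. With RBM25_NT over dCasRx_NT, DESeq2 called 1 member higher (ASNS, by its gene counts) and 5 lower. Without a count filter, 2647 genes and 6 members higher were called. With only the libraries compared it was 636 genes, and with all guides averaged 3190 genes and 1 member higher (again ASNS). With RBFOX1N_NT over dCasRx_NT, no filter gave 8 members higher and 0 lower, and all guides averaged 4142 genes and 8 members higher. For the guides, DESeq2 called 4 genes (MAPT with RBM25) and 3 (CD46), no filter 67, 13 and 1 (MAPT with RBFOX1N), and only the libraries compared 8 (CD46) and 4 (MAPT with RBFOX1N). By limma on logit PSI, 1336 events were called between RBFOX1N and RBM25 (5 in members, without the SLC3A2 intron), 50 with RBM25_NT and 293 with RBFOX1N_NT (1 in a member in each, the 58-nt CTH exon). The cause was not tested. Leaving out 1 library at a time gave 368 to 2048 genes, 0 to 2 members higher and 2 to 4 lower with RBM25_NT, 624 to 2972 genes, 3 to 5 members higher and 0 to 2 lower with RBFOX1N_NT, and 0 to 555 genes and 0 to 2 members lower for the MAPT guide with RBM25. In splicing it gave 237 to 447 events (2 to 4 in members) with RBM25_NT and 473 to 783 events (2 to 5 in members) with RBFOX1N_NT. Between RBFOX1N and RBM25 it gave 10 to 13 members higher and 6 to 9 lower. Without a count filter the adjusted p of ATF4 in that comparison was 0.169, and with only the libraries compared those of PHGDH, MTHFD2 and STC2 were 0.0502, 0.0508 and 0.0586.

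Over all genes, deviations of same-numbered libraries correlated only weakly, at -0.0979 to 0.166 over the group pairs. The pairs among the RBM25 groups were the highest (0.0996 to 0.166). In each RBM25 group, replicate 1 was above replicate 2 for DDIT4, TRIB3 and GDF15, and below it for PSAT1, SLC7A11 and XPOT. What same-numbered RBM25 libraries share was not tested. With a replicate block, 2 members were called higher and 5 lower with RBM25_NT over dCasRx_NT, 12 higher and 10 lower between RBFOX1N and RBM25, and 6 higher and 1 lower with RBFOX1N_NT. With the block, 4 member events were called with RBFOX1N_NT, without the ATF3 exon (adjusted p = 0.0776) and the 53-nt CTH exon (adjusted p = 0.0683). With 2 libraries a group, small differences could go uncalled, and events with few reads (ATF3, JDP2, DDIT3) are the least precise.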
